A study of Mus musculus with 9 samples.

Results

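The genes described here are 39 genes of glucose uptake, glycolysis, glycogen metabolism and pyruvate dehydrogenase control, looked up by name in a table of sham quadriceps against sham heart that lists 24537 gene names. The rule names genes of these pathways and uses no measured value. Where a gene had several RefSeq transcripts, the transcript with the highest summed count over the 6 libraries stood for it. The study followed cardiac cachexia in mice labelled C57Bl6 (male C57Bl/6JCrl in the methods), which had transverse aortic constriction (TAC, a narrowing of the aortic arch that puts the left ventricle under pressure overload) or a sham operation at 8 weeks of age. RNA was sequenced 12 weeks after surgery from sham heart, sham quadriceps and TAC quadriceps, with 3 samples each. The sham heart and sham quadriceps groups share genotype, operation and time, and carry no allele or drug, so they differ in tissue. The labels describe the extraction of RNA for quadriceps only, also on the heart samples. TAC quadriceps had the constriction and no allele or drug, and its counts were read from a table of secreted-protein genes. Replicates are separate libraries whose labels do not name the mouse, so that p-values measure the spread between libraries.

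Glycolysis splits glucose into pyruvate in the cytosol and yields a small amount of ATP without oxygen. Pyruvate is then reduced to lactate or enters the mitochondria, where the pyruvate dehydrogenase complex turns it into acetyl-CoA unless a kinase of the PDK family has switched the complex off. Many of these steps are run by enzymes with a muscle gene and one or more genes used by other tissues, as with the M, L and P types of phosphofructokinase or the muscle, brain and liver types of glycogen phosphorylase. Fast-twitch limb muscle is known for large glycogen stores and high glycolytic capacity, whereas the working heart is known for burning fatty acids and taking up lactate.

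The heart libraries held 33102826 to 38382751 counts and the quadriceps libraries 23383452 to 32989108. All 7 quadriceps myofibre markers were higher in quadriceps and all 7 heart muscle markers were lower, so the tissue labels matched. Myl7 was counted 2075, 164 and 3 times in heart libraries 1, 2 and 3, and Nppa 21763, 20012 and 8000 times. The other heart muscle markers had coefficients of variation of 1.24% to 8.22% in heart. Markers of other cells also differed, and their summed levels are given in CPM, that is counts over the TMM-scaled library size. All 6 endothelial markers were lower in quadriceps (134 to 153 CPM against 438 to 476 CPM in heart). Lower too were 5 of 6 red blood cell markers (70.6 to 86.8 against 242 to 291 CPM). Of 6 listed leukocyte markers, 3 of 4 tested were lower (9.28 to 18.8 against 24.9 to 26.9 CPM). Of 6 adipocyte markers, 5 were higher in quadriceps, and Fabp4 was not called (log2 fold change -0.077). The summed level of the 6 was 481 CPM in quadriceps library 1, 237 and 193 CPM in libraries 2 and 3, and 235 to 305 CPM in heart. Fabp4 held more counts than any other of the 6 (10777, 4839 and 3193 in the quadriceps libraries), so the sum mostly shows Fabp4. Of the fibroblast markers 4 of 6 were lower (383 to 535 against 551 to 617 CPM, with Tcf21 at 0 in quadriceps), of the slow fibre markers 3 of 4 were lower and 1 was higher, of the smooth muscle markers 1 was higher and 1 lower of 4, and of the Schwann cell markers 2 of 4 were higher. Of the brown adipocyte markers 1 of 2 tested was lower, and Ucp1 was counted 0 times in every heart library and 65, 1 and 0 times in quadriceps libraries 1, 2 and 3. In bulk tissue, fewer cells of a type and less RNA per cell cannot be told apart.

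Most of the glycolytic and glycogen genes were higher in quadriceps than in heart, but the tissues also used different genes for the same reaction. Of the 39 genes, 38 passed the count filter (more than 5 counts in at least 2 libraries). Of these 38, 24 (63.2%) were higher in quadriceps, 8 (21.1%) were lower and 6 were not called, at an adjusted p under 0.05 by edgeR's quasi-likelihood test over 24280 transcripts. Over all tested transcripts, 32.2% were higher and 34.4% lower. Log2 fold changes of the 38 genes had a median of 1.43, against -0.056 over all transcripts. Changes of more than 2-fold were called for 21 genes higher in quadriceps (16.0% of all transcripts) and 8 lower (20.5% of all transcripts). The 3 quadriceps values lay above the 3 heart values in 23 genes (34.2% of all transcripts) and below them in 8 (38.3% of all transcripts), and they overlapped in 7.

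The 8 genes that were lower in quadriceps were Hk1, Pfkl, Pfkp, Pfkfb2, Pgam1, Ldhb, Pygb and Pdk1. Of them, 7 have a sister gene among the 39 that was higher in quadriceps, the exception being Hk1, whose sister Hk2 was not called. For Pdk1 that sister is Pdk4, whose call as higher was lost without quadriceps library 1. Endothelial, red blood cell, leukocyte and fibroblast markers went down along with these 8 genes, and their part in the differences was not tested. The genes not called were Slc2a1, Hk2, Eno1, Pygl, Pdha1 and Pdk2. Scaling matters for the smaller differences. These results use TMM scaling, under which the quadriceps factors were below 1 and the heart factors above 1, and scaling by library totals moved the median of all transcripts from -0.056 to -0.80. The split of all calls then went from 48.4% to 17.6% higher in quadriceps, and 20 of the 38 genes were higher and 13 lower. The calls of Slc2a4, Gpi1, Gbe1 and Pdk4 as higher were lost that way, and Hk2, Eno1, Pygl, Pdha1 and Pdk2 became lower. The other 29 genes had the same call under both scalings.

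**Figure D1:**
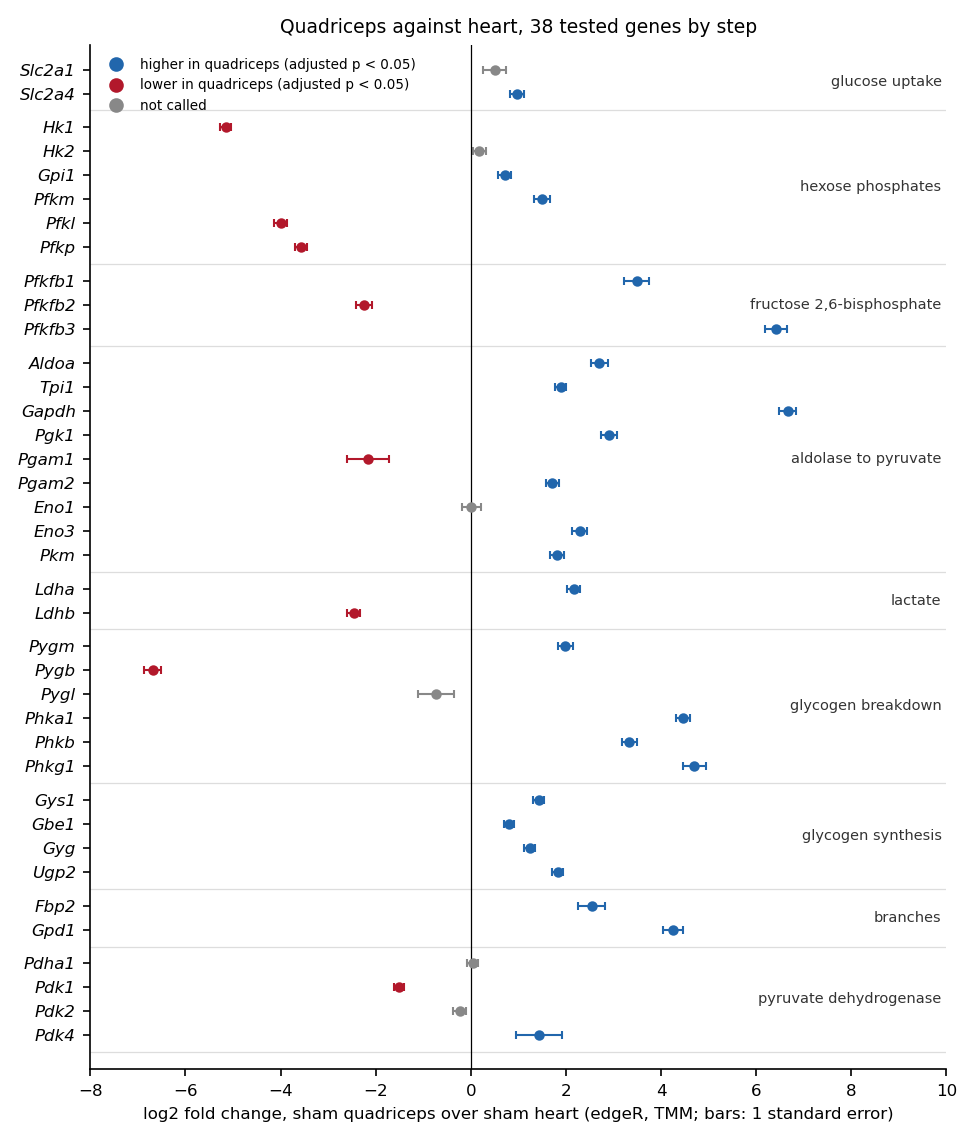
Log2 fold change of sham quadriceps over sham heart (x axis, TMM scaling) for the 38 tested genes, grouped by step of the pathway, with bars of 1 standard error. The 24 genes called higher lie right of zero and reach 6.66 (Gapdh), the 8 called lower lie left and reach -6.69 (Pygb), and the 6 not called lie between -0.72 and 0.50.

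Levels are given below as TMM-scaled RPKM, that is counts over the transcript length in the deposited table and over the TMM-scaled library size, in the usual units of RPKM. On this per-length scale the highest quadriceps level was that of Aldoa (2686 ± 617, SD, n = 3), followed by Pgam2 (1488 ± 219) and Eno3 (1485 ± 264), and the latter pair did not differ beyond their spread. In heart, the order was Pgam2 (453 ± 6.09), Aldoa (411 ± 16.1), Pdha1 (309 ± 14.9) and Eno3 (302 ± 7.11), of which Pdha1 and Eno3 overlapped. The members' transcripts together took 3.11% to 3.68% of the counts in quadriceps and 1.51% to 1.61% in heart, with 1 transcript counted for each gene. Libraries of quadriceps spread more than those of heart. The median coefficient of variation over the 38 genes was 17.5% in quadriceps and 6.59% in heart, and it was larger in quadriceps for 33 genes. Quadriceps library 1 was the highest of its group for 17 of the 38 genes and the lowest for 18, so it did not differ by a common factor.

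**Figure D2:**
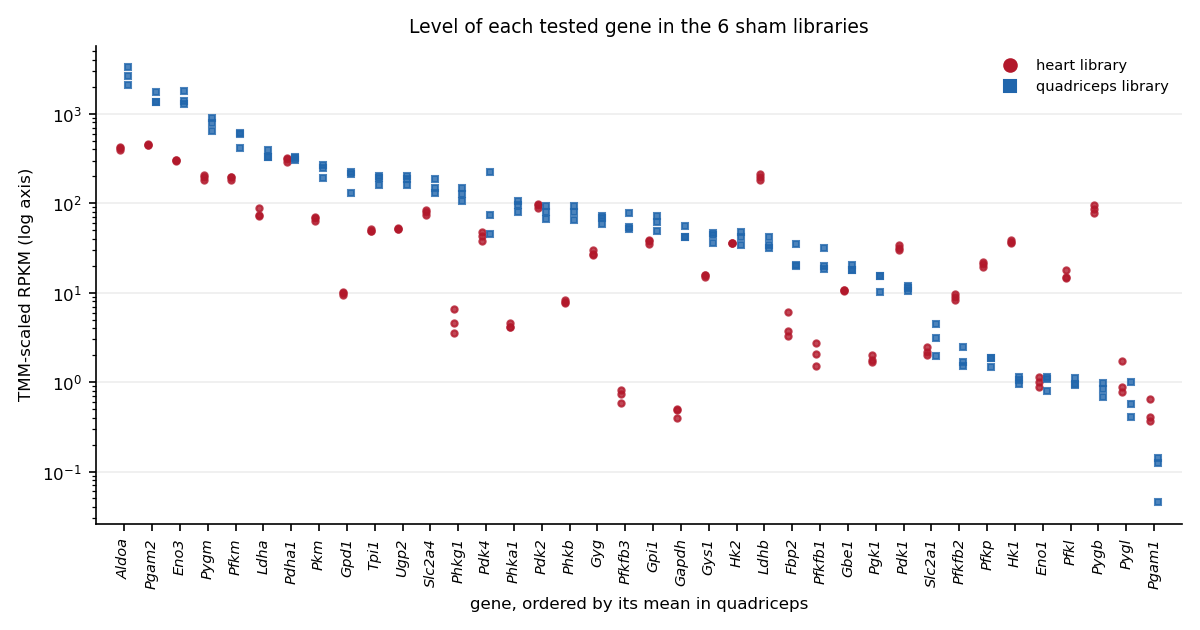
TMM-scaled RPKM (log axis) of the 38 tested genes in the 3 heart libraries (circles) and the 3 quadriceps libraries (squares), ordered by the mean in quadriceps. Aldoa, Pgam2 and Eno3 lead in quadriceps, and Hk1, Pfkl, Pygb and Ldhb are genes whose heart values lie far above their quadriceps values.

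To show the DNA of gene pairs that run the same reaction and differed in opposite directions, the bases before the start sites of the mutase genes Pgam2 and Pgam1 and of the phosphorylase genes Pygm and Pygb are printed here, from RefSeq on GRCm38.p6. Up to 250 bases are shown 5′ to 3′ on the gene's strand, ending before the annotated transcripts begin, and capitals mark CAGCTG, an E-box of the kind bound by muscle regulatory factors of the MyoD family.
Pgam2, chr11:5803797-5804046, minus strand: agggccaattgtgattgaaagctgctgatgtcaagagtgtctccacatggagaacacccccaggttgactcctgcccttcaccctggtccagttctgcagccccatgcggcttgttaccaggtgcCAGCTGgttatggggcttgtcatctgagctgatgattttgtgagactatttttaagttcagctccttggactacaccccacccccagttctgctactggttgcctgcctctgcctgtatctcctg
Pgam1, chr19:41911621-41911870, plus strand: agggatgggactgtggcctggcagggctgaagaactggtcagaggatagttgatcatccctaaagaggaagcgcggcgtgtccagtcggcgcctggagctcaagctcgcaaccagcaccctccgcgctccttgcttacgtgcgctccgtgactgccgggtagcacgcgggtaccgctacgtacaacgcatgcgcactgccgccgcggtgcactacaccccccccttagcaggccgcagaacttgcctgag
Pygm, chr19:6384158-6384398, plus strand: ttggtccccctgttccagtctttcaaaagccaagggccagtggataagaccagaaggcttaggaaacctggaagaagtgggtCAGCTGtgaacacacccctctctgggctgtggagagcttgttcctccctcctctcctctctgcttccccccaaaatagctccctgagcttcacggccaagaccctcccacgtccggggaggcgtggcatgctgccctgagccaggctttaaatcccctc
Pygb, chr2:150786546-150786734, plus strand: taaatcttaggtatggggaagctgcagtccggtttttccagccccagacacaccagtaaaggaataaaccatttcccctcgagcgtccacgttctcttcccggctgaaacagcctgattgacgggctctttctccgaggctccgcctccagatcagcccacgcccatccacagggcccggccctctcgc
Pgam2 and Pygm, the muscle genes that were higher in quadriceps, each hold 1 CAGCTG in the printed stretch, and Pgam1 and Pygb, which were lower, hold 0. The CpG ratio (the number of CG dinucleotides over that expected from the C and G content) was 0.057 for Pgam2 and 0.202 for Pygm, against 0.860 for Pgam1 and 0.728 for Pygb. These 4 genes were chosen after their values were seen, and other gene families did not follow this pattern. In the windows of 250 bases, Pfkfb2 and Pdk1, which were lower, hold CAGCTG, as does Pfkfb1, which was higher. Pfkfb3 and Pdk4, which were higher, do not hold it. Neither do Pfkm and Ldha, which were higher, or Pfkl, Pfkp and Ldhb, which were lower.

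Across the wider set, the promoter table held 57 windows for 37 of the 39 genes, Slc2a4 and Gpd1 not among them, and several genes have more than 1 start site. CAGCTG, which reads the same on both strands, was in 9 of 34 windows of the genes higher in quadriceps, in 2 of 12 windows of the genes lower in quadriceps and in 13.0% of all 32841 windows of 250 bases. The E-box CACGTG was in 4 of 34 and 1 of 12 of these windows and in 6.02% of all windows. GGGCGG, a GC box searched on both strands, was in 16 of 34 and 3 of 12, against 32.8% of all windows. TATAAA was in 1 of the 57 member windows and in 12.4% of all windows, and the MEF2 motif, which can contain TATAAA, was in 0 of 57 and 0.509% of all windows. AAGGTCA, the estrogen-related receptor motif, was in 2 of 57 against 4.08%, and the CArG box of serum response factor was in 0 of 57 against 1.47%, both strands being searched for every motif. The CpG ratio of the wider set did not part as in the 4 printed genes. Its median was 0.5582 in windows of the genes higher in quadriceps, 0.5825 in those of the lower genes and 0.3736 in all windows. A match of letters describes the window and was not tested for binding.

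Glucose enters muscle through the transporters GLUT4, the insulin-responsive form encoded by Slc2a4, and GLUT1, the basal form encoded by Slc2a1. In TMM-scaled RPKM, Slc2a4 was at 78.9, 73.7 and 84.7 in heart and at 131, 186 and 149.7 in quadriceps. All quadriceps values lay above the heart values, with a log2 fold change of 0.98 (SE 0.15, adjusted p = 0.000263 with edgeR), where SE is the standard error of the fit. With library totals the log2 fold change was 0.22 (adjusted p = 0.121 with edgeR). Slc2a1 was low in both tissues, with 2.15, 2.003 and 2.49 in heart and 1.97, 3.13 and 4.41 in quadriceps, and the groups overlapped at a log2 fold change of 0.50 (SE 0.25, adjusted p = 0.0997 with edgeR). It was called higher without quadriceps library 1 (0.78, adjusted p = 0.00222 with edgeR) and had the opposite sign with library totals (-0.26). Slc2a4 made up 97.3% ± 0.120 of the counts per kilobase of both transporters in heart and 98.0% ± 0.755 in quadriceps (SD, n = 3 each). The log2 ratio of Slc2a4 to Slc2a1 differed by 0.52, and the libraries overlapped (exact two-sided permutation test, p = 0.4).

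Hexokinase traps glucose in the cell as glucose 6-phosphate. The heart held Hk1 and Hk2 at about the same level per length, and the quadriceps held almost Hk2 alone. Hk1, the form found in most tissues, was at 38.7, 37.3 and 36.0 in heart and 1.14, 0.950 and 1.05 in quadriceps. It lies on chromosome 10 from 62268855 to 62379908 on the minus strand, where the antisense gene Hk1os shares 157 exon bases, and was 35.6-fold higher in heart, a log2 fold change of -5.16 (SE 0.12, adjusted p = 2.45e-09 with edgeR). Hk2, the insulin-induced form, was at 36.0, 36.3 and 36.4 in heart and 33.9, 48.1 and 41.4 in quadriceps. The heart values of Hk2 lay within those of quadriceps, and its log2 fold change of 0.18 (SE 0.13, adjusted p = 0.252 with edgeR) was not called. Without quadriceps library 1 it was called higher (0.33, adjusted p = 0.0177 with edgeR), and with library totals it was called lower (-0.58). Hk1 thus took 50.8% ± 1.05 of the hexokinase counts per kilobase in heart and 2.55% ± 0.659 in quadriceps. The log2 ratio of Hk2 to Hk1 was -0.043 ± 0.060 in heart and 5.29 ± 0.38 in quadriceps, with no overlap (exact two-sided permutation test, p = 0.1, the smallest that 3 against 3 libraries allow).

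Gpi1, which converts glucose 6-phosphate to fructose 6-phosphate, was modestly higher in quadriceps, at 61.03 ± 11.8 against 37.3 ± 1.75 (SD, n = 3), with a log2 fold change of 0.71 (SE 0.14, adjusted p = 0.00178 with edgeR). With library totals its log2 fold change was -0.053. Phosphofructokinase then commits the sugar to glycolysis, and its M subunit gene Pfkm was higher in quadriceps while the L and P subunit genes were lower. Pfkm was at 197, 184 and 195 in heart and 414, 617 and 588 in quadriceps, a log2 fold change of 1.49 (SE 0.17, adjusted p = 3.87e-05 with edgeR). The liver-type gene Pfkl was at 14.6, 15.1 and 17.8 in heart and 0.936, 0.951 and 1.12 in quadriceps, which is 15.9-fold higher in heart (log2 fold change -3.99, SE 0.14, adjusted p = 1.69e-08 with edgeR). The platelet-type gene Pfkp went the same way, from 21.2, 19.1 and 21.8 in heart to 1.88, 1.49 and 1.86 in quadriceps (11.9-fold higher in heart, log2 fold change -3.57, SE 0.13, adjusted p = 2.25e-08 with edgeR). None of the 3 subunit genes overlapped between tissues. Pfkm made up 84.01% ± 0.809 of phosphofructokinase counts per kilobase in heart and 99.5% ± 0.142 in quadriceps, where Pfkl held 0.189% ± 0.0355 and Pfkp 0.335% ± 0.107. The log2 ratio of Pfkm to Pfkp was 5.05 higher in quadriceps (exact two-sided permutation test, p = 0.1, the smallest possible).

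The PFKFB enzymes make and break fructose 2,6-bisphosphate, the strongest activator of phosphofructokinase, and the tissues differed in which of their genes they held most. Pfkfb2, known as the heart form, was at 8.99, 9.70 and 8.22 in heart and 2.46, 1.51 and 1.68 in quadriceps, 4.75-fold higher in heart (log2 fold change -2.25, SE 0.18, adjusted p = 3.86e-06 with edgeR). Pfkfb3, an inducible form with strong kinase activity, stood at 0.826, 0.728 and 0.591 in heart and 77.6, 54.5 and 51.5 in quadriceps. It lies on chromosome 2 from 11471433 to 11554077 on the minus strand and was 85.4-fold higher in quadriceps, a log2 fold change of 6.42 (SE 0.22, adjusted p = 1.87e-08 with edgeR). Its 8 listed transcripts agreed to within 0.020 on the log2 scale. The 4 listed for Pfkfb2 spread more, with log2 fold changes of -2.47 to -1.86. Pfkfb1, known from liver and skeletal muscle, was at 1.52, 2.05 and 2.73 in heart and 32.0, 19.96 and 18.5 in quadriceps, with a log2 fold change of 3.49 (SE 0.27, adjusted p = 3.22e-06 with edgeR). Quadriceps library 1 was the highest of its group for all 3 genes, and no gene overlapped between tissues. Pfkfb2 took 76.1% ± 4.28 of the family's counts per kilobase in heart and 2.18% ± 0.177 in quadriceps, whereas Pfkfb3 took 6.08% ± 1.10 and 70.9% ± 1.47. The log2 ratio of Pfkfb3 to Pfkfb1 was 2.93 higher in quadriceps (exact two-sided permutation test, p = 0.1, the smallest possible).

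**Figure D3:**
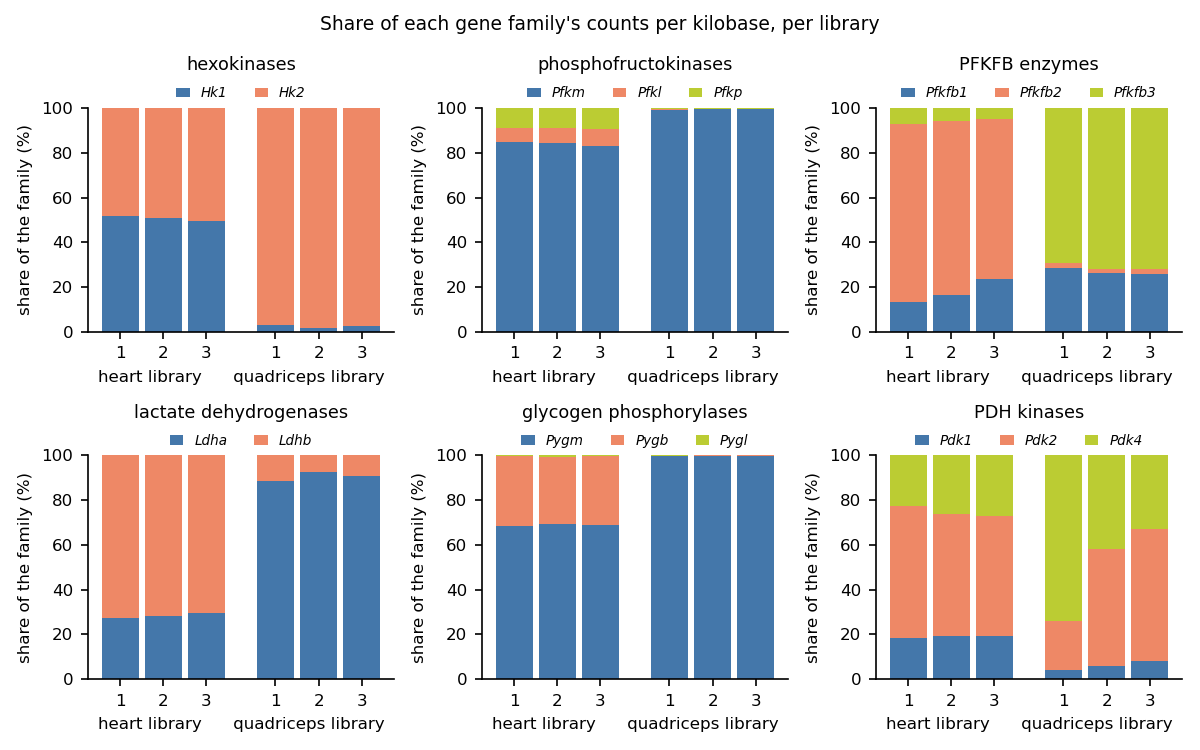
Share of a gene family's counts per kilobase (y axis, percent) held by each gene in the 3 heart and 3 quadriceps libraries, for 6 families. Hk1, Pfkfb2, Ldhb and Pygb hold 50.8%, 76.1%, 71.6% and 30.8% of their families in heart on average and 2.55%, 2.18%, 9.33% and 0.112% in quadriceps, and the PDH kinases vary among the quadriceps libraries.

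From aldolase to pyruvate, 7 of the 9 tested genes were higher in quadriceps, 1 was lower and 1 was not called. Of all tested transcripts, 32.2% were higher and 34.4% lower. Aldolase cleaves fructose 1,6-bisphosphate, and its muscle gene Aldoa was at 412, 395 and 427 in heart and 2087, 3319 and 2652 in quadriceps, a log2 fold change of 2.71 (SE 0.19, adjusted p = 1.79e-06 with edgeR). The brain gene Aldoc was counted 0, 3 and 4 times in heart and 4, 1 and 4 times in quadriceps and was not tested. The listed Aldoa transcripts differed between tissues in a part of their counts. NM_001177307 held 3541, 3933 and 3081 counts more than NM_001177308 in the heart libraries, but in quadriceps the difference was 67, -76 and -95 counts at totals of 89467, 125142 and 73962. Tpi1, the triose phosphate isomerase, rose to 184 ± 22.1 in quadriceps from 49.5 ± 1.25 in heart (SD, n = 3), with a log2 fold change of 1.89 (SE 0.12, adjusted p = 9.51e-07 with edgeR).

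Gapdh and Pgk1 run the steps that yield NADH and the first ATP. Gapdh was counted 33, 28 and 30 times in heart and 1600, 1896 and 1051 times in quadriceps, so that its log2 fold change of 6.66 (SE 0.19, adjusted p = 5.19e-09 with edgeR) was the highest among the 38 genes. Its level is uncertain, since 82.5% of the 50-base windows of its transcript also occur in transcripts of 222 other genes, 213 of them pseudogenes. The handling of reads with several matches is not given in the sources used here, and its part in the low heart count was not tested. The other Gapdh transcript, NM_001289726, was counted 22, 13 and 12 times in heart and 20, 19 and 8 times in quadriceps, a log2 fold change of 1.01 (adjusted p = 0.0323 with edgeR), far from the 6.66 of NM_008084. Pgk1, on the X chromosome, was at 1.77, 1.69 and 2.005 in heart and 15.4, 15.2 and 10.2 in quadriceps (log2 fold change 2.91, adjusted p = 6.8e-07 with edgeR), with 67.96% of its windows shared.

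Phosphoglycerate mutase and enolase each have a muscle gene that held most of the pair's counts in both tissues. The muscle mutase Pgam2, printed above with its CAGCTG, was at 459, 452 and 447 in heart and 1362, 1742 and 1361 in quadriceps, a log2 fold change of 1.72 (SE 0.14, adjusted p = 4.64e-06 with edgeR). Pgam1, the form of most other tissues, was counted 32, 37 and 51 times in heart and 7, 2 and 4 times in quadriceps. Its values of 0.368, 0.403 and 0.650 against 0.141, 0.0458 and 0.124 did not overlap and gave a log2 fold change of -2.17 (SE 0.44, adjusted p = 0.00188 with edgeR), on few counts and with 41.5% of its windows shared with other genes. The muscle enolase Eno3 was at 305, 294 and 308 in heart and 1285, 1784 and 1384 in quadriceps, a log2 fold change of 2.30 (SE 0.16, adjusted p = 1.6e-06 with edgeR). Eno1, the alpha enolase of most cells, was at 1.16, 0.891 and 1.004 in heart and 1.15, 1.09 and 0.802 in quadriceps, which overlapped (log2 fold change 0.014, SE 0.20, adjusted p = 0.957 with edgeR). Its sign turned under several settings, and 72.2% of its windows are shared, so its level is uncertain. Pgam2 made up 99.9% ± 0.0353 of mutase counts per kilobase in heart, and Eno3 made up 99.7% ± 0.0386 of enolase counts per kilobase. In quadriceps both shares were closer still to the whole. These shares carry the uncertainty of the Pgam1 and Eno1 counts, and the part of shared windows in them was not tested.

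Pkm makes pyruvate, and 1 gene encodes both the M1 form of muscle and the M2 form of growing cells by a choice between neighbouring exons. It was at 68.3, 63.5 and 70.5 in heart and 191, 271 and 249 in quadriceps, a log2 fold change of 1.81 (SE 0.15, adjusted p = 4.69e-06 with edgeR). The alternative exons are 167 bases each, at chromosome 9 from 59675029 to 59675195 in NM_001253883 (M1) and from 59675568 to 59675734 in NM_011099 (M2). In the annotation the first exons (77 and 282 bases) and last exons (462 and 648 bases) of these transcripts also differ. The deposited length is 2419 bases for both, and count differences were not assigned to an exon. NM_001253883 held 474, 463 and 368 counts more than NM_011099 in heart and 493, 559 and 352 more in quadriceps. The 2 transcripts share most of their bases and 33.2% of the windows also occur in other genes, so that no M1 share is given.

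Lactate dehydrogenase interconverts pyruvate and lactate, and the 2 subunit genes changed places between the tissues. Ldha, the muscle subunit, was at 74.6, 72.5 and 89.1 in heart and 328, 399 and 333 in quadriceps, with a log2 fold change of 2.16 (SE 0.14, adjusted p = 9.53e-07 with edgeR). Ldhb, the heart subunit, was at 197, 183 and 213 in heart and 41.8, 31.3 and 34.5 in quadriceps, 5.52-fold higher in heart (log2 fold change -2.46, SE 0.14, adjusted p = 3.78e-07 with edgeR). Neither gene overlapped between tissues. Ldhb lies on chromosome 6 from 142490249 to 142507957 on the minus strand. Ldhb made up 71.6% ± 0.993 of the counts per kilobase of the pair in heart and 9.33% ± 2.01 in quadriceps, and the log2 ratio of Ldha to Ldhb was -1.33 ± 0.070 in heart and 3.30 ± 0.35 in quadriceps, with no overlap (exact two-sided permutation test, p = 0.1, the smallest possible). Shared windows were 27.01% for Ldhb and 19.1% for Ldha.

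**Figure D4:**
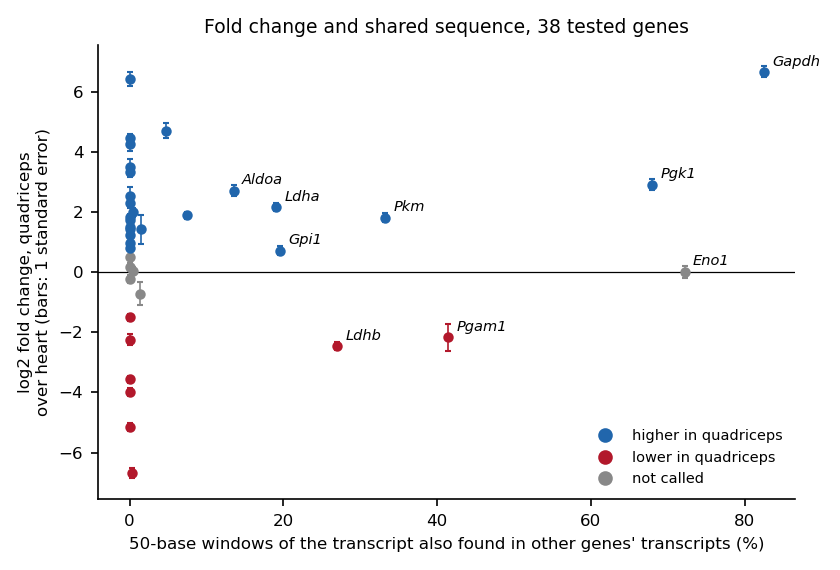
Log2 fold change of the 38 tested genes (y axis, bars of 1 standard error) against the percent of 50-base windows of the transcript that also occur in transcripts of other genes (x axis). The 9 genes at 10% or more are named and include genes called higher, called lower and not called, with Gapdh at 82.5%.

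Because the shared windows could change counts, the calls were also read without the 9 genes that share at least 10% of their windows (Gpi1, Aldoa, Gapdh, Pgk1, Pgam1, Eno1, Pkm, Ldha and Ldhb). Of the 29 other tested genes, 18 were higher in quadriceps, 6 lower and 5 not called, with a median log2 fold change of 1.43, which is the median of all 38 genes to 2 decimals. At most 7.51% of the windows of these 29 genes were shared, in Tpi1. For Pfkfb2 and Pfkfb3 the windows covered annotated transcripts of 2849 and 2216 bases, shorter than the counted ones (7291 and 5161 bases). The rest of these 2 genes was not searched. In the annotation, 16 of the 39 genes overlap exons of another gene, 3 of them on the same strand (Pfkm, Pfkfb2 and Pkm, with 341, 1262 and 767 bases). Reads in such bases could not be told apart without the strand and overlap settings.

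Glycogen phosphorylase releases glucose 1-phosphate from glycogen, and the muscle and brain types parted sharply. Pygm, the muscle type, was at 209, 180.1 and 195 in heart and 635, 889.5 and 791 in quadriceps, a log2 fold change of 1.99 (SE 0.16, adjusted p = 4.24e-06 with edgeR). Pygb, the brain type, which lies on chromosome 2 from 150786735 to 150831758 on the plus strand, was at 96.1, 77.9 and 87.4 in heart and 0.983, 0.843 and 0.681 in quadriceps. It was 103-fold higher in heart with a log2 fold change of -6.69 (SE 0.18, adjusted p = 4.02e-09 with edgeR), the most negative of the 38 genes. The start-site stretches of both genes are printed above. Pygl, the liver type, was low, at 0.780, 1.71 and 0.873 in heart and 1.01, 0.567 and 0.404 in quadriceps, where heart library 2 stood apart with the highest value. Its log2 fold change of -0.72 (SE 0.38, adjusted p = 0.118 with edgeR) was not called, but without quadriceps library 1 it was (-1.16, adjusted p = 0.0350 with edgeR), as it was with library totals (-1.46). Pygb made up 30.8% ± 0.735 of phosphorylase counts per kilobase in heart and 0.112% ± 0.0372 in quadriceps, and the log2 ratio of Pygm to Pygb was 8.69 higher in quadriceps (exact two-sided permutation test, p = 0.1, the smallest possible).

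Phosphorylase kinase switches phosphorylase on, and the muscle alpha and gamma and the beta subunit genes rose in quadriceps, by 10.1-fold to 25.98-fold. The catalytic gamma subunit gene of muscle, Phkg1, was at 6.54, 3.53 and 4.54 in heart and 107, 147 and 126 in quadriceps (25.98-fold higher, log2 fold change 4.70, SE 0.24, adjusted p = 2.54e-07 with edgeR). It lies on chromosome 5 from 129863421 to 129898549 on the minus strand, and Sumf2 shares 630 exon bases on the opposite strand. The muscle alpha subunit gene Phka1 was at 4.09, 4.19 and 4.53 in heart and 79.7, 105 and 96.1 in quadriceps (21.9-fold higher, log2 fold change 4.45, SE 0.15, adjusted p = 1.43e-08 with edgeR). The beta subunit gene Phkb was at 7.72, 7.84 and 8.19 in heart and 94.2, 64.2 and 80.5 in quadriceps (10.1-fold higher, log2 fold change 3.33, adjusted p = 1.27e-07 with edgeR). No quadriceps value of the 3 genes came near the heart values. Outside the 39 genes, the liver alpha subunit gene Phka2 was lower in quadriceps (2.005 ± 0.149 in heart and 0.887 ± 0.140 in quadriceps, SD, n = 3; log2 fold change -1.16, adjusted p = 6.38e-05 with edgeR). The liver and testis gamma subunit gene Phkg2 was not called (-0.15, adjusted p = 0.357 with edgeR) but was called lower with library totals (-0.91). These genes were named after their values were seen.

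All 4 genes of glycogen synthesis were higher in quadriceps (32.2% of all transcripts were), by less than the phosphorylase kinase genes. Ugp2, which makes UDP-glucose, was at 183 ± 19.7 in quadriceps and 51.8 ± 0.606 in heart (SD, n = 3; log2 fold change 1.82, adjusted p = 1.15e-06 with edgeR). Gys1, the muscle glycogen synthase, was at 41.9 ± 5.62 and 15.6 ± 0.633 (log2 fold change 1.43, adjusted p = 6.25e-06 with edgeR). Gyg, the glycogenin that primes a new granule, was at 66.1 ± 6.55 and 28.02 ± 1.80 (log2 fold change 1.24, adjusted p = 8.71e-06 with edgeR). Gbe1, the branching enzyme, was at 18.7 ± 1.39 and 10.7 ± 0.208 (log2 fold change 0.80, adjusted p = 6.08e-05 with edgeR), and its difference was 0.054 with library totals (adjusted p = 0.625 with edgeR). No gene of these 4 overlapped between tissues.

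On the side branches, Gpd1 and Fbp2 were higher in quadriceps. Gpd1, the cytosolic glycerol 3-phosphate dehydrogenase that reoxidizes NADH, was at 10.3, 9.97 and 9.43 in heart and 129.9, 212 and 223 in quadriceps, 19.03-fold higher (log2 fold change 4.25, SE 0.21, adjusted p = 2.13e-07 with edgeR). Fbp2, the muscle fructose bisphosphatase that runs the phosphofructokinase step backwards, was at 3.76, 3.31 and 6.05 in heart and 35.1, 20.7 and 20.1 in quadriceps (log2 fold change 2.54, adjusted p = 3.49e-05 with edgeR). Quadriceps library 1 was the highest of its group for Fbp2 and the lowest for Gpd1, and heart and quadriceps did not overlap for either.

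At the entry to the mitochondrial pathway the tissues differed less. Pdha1, the E1 alpha subunit of pyruvate dehydrogenase, was at 319.6, 292 and 316 in heart and 330.2, 324 and 303 in quadriceps. These values overlapped, with a log2 fold change of 0.045 (SE 0.12, adjusted p = 0.746 with edgeR), and with library totals it was called lower (-0.70). Of the kinases that inactivate the complex, Pdk1 was at 30.2, 31.4 and 33.8 in heart and 11.95, 10.4 and 11.2 in quadriceps, 2.84-fold higher in heart with no overlap (log2 fold change -1.51, SE 0.10, adjusted p = 1.71e-06 with edgeR). Pdk2 was at 97.9, 89.3 and 94.5 in heart and 66.8, 92.9 and 79.7 in quadriceps, with quadriceps library 2 inside the heart range, and was not called (log2 fold change -0.24, SE 0.13, adjusted p = 0.143 with edgeR). Without quadriceps library 2 Pdk2 was called lower (-0.36, adjusted p = 0.0187 with edgeR), as with library totals (-0.996).

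Pdk4, the kinase induced by fasting and fatty acids, varied more among quadriceps libraries than any other tested member. It was at 37.6, 42.6 and 48.3 in heart and 226, 74.6 and 44.8 in quadriceps, so that quadriceps library 1 was far above the rest and library 3 lay inside the heart range. The coefficient of variation was 84.4% in quadriceps and 12.5% in heart. Its log2 fold change of 1.43 (SE 0.49, adjusted p = 0.0261 with edgeR) was called but rests on library 1. Without that library it was 0.51 (adjusted p = 0.0547 with edgeR), with DESeq2 1.44 (adjusted p = 0.0616) and with library totals 0.73 (adjusted p = 0.254 with edgeR). It also lost its call without heart library 1, 2 or 3 (adjusted p = 0.0757, 0.0678 and 0.0507 with edgeR). Quadriceps library 1 also had the highest summed adipocyte markers, 481 CPM against 193 to 237 CPM in the other quadriceps libraries and 235 to 305 CPM in heart. All 6 markers were detected in it, as were 65 counts of Ucp1, and their part in the Pdk4 level was not tested. Pdk4 made up 74.2%, 41.9% and 33.0% of the PDH kinase counts per kilobase in the 3 quadriceps libraries and 22.7%, 26.1% and 27.3% in heart. The log2 ratio of Pdk2 to Pdk4 differed by -1.34, quadriceps minus heart (exact two-sided permutation test, p = 0.1, the smallest possible), and by -0.57 without quadriceps library 1.

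**Figure D5:**
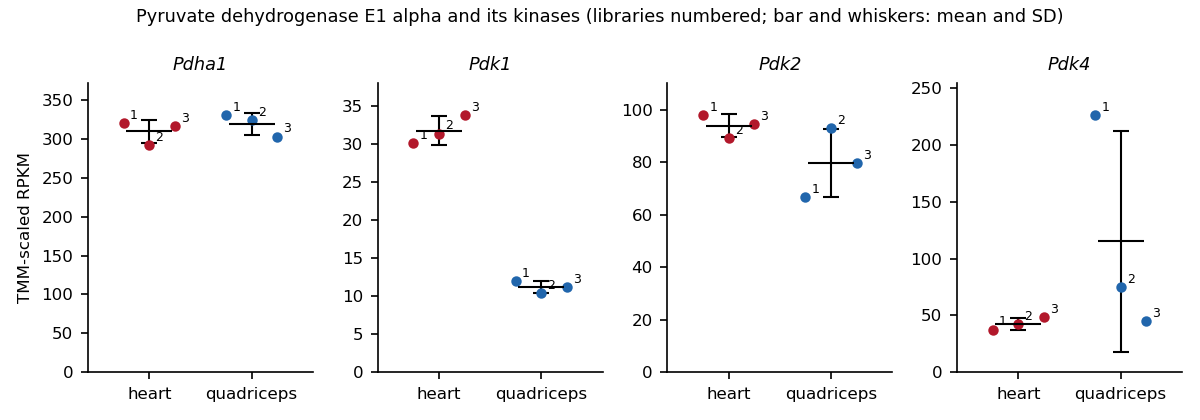
TMM-scaled RPKM of Pdha1 and of Pdk1, Pdk2 and Pdk4 in the numbered heart and quadriceps libraries, with the mean and SD of 3 libraries. Pdk1 is lower in all quadriceps libraries, Pdha1 and Pdk2 overlap, and Pdk4 ranges from 44.8 to 226 in quadriceps.

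A further 70 genes of the same pathways came from a list of transporters, enzymes and regulators. Of the 63 that were tested, 33 (52.4%) were higher in quadriceps, 19 (30.2%) lower and 11 not called, with a median log2 fold change of 0.47, against 32.2% higher and 34.4% lower over all transcripts. This order turned with library totals and in each of the 3 limma settings on RPKM, with 21 higher and 31 lower. Those RPKM values are also scaled by library total. The order held with DESeq2 size factors (33 higher, 18 lower) and with DESeq2 (34 higher, 15 lower). Among transport genes 4 of 10 were higher and 5 lower, among the other glycogen genes 13 of 21 were higher and 6 lower, and among the remaining pyruvate dehydrogenase genes 2 of 8 were higher and 3 lower, which are small counts beside the shares over all transcripts. Slc16a3, the lactate exporter MCT4, had the highest log2 fold change, 7.20 (adjusted p = 5.43e-09 with edgeR), at 0.178, 0.265 and 0.160 in heart and 25.7, 34.0 and 30.7 in quadriceps. Stbd1, a glycogen-binding protein, followed with 6.77 (adjusted p = 2.93e-08 with edgeR), from 0.312 ± 0.107 in heart to 34.6 ± 7.31 in quadriceps (SD, n = 3). Gpd2, the mitochondrial partner of Gpd1 in the glycerol phosphate shuttle, rose with it by 4.26 on the log2 scale (adjusted p = 3.87e-09 with edgeR), from 1.80 ± 0.0341 to 34.5 ± 2.30. Pck1, the phosphoenolpyruvate carboxykinase of liver and fat, was counted 14, 13 and 2 times in heart and 436, 70 and 30 times in quadriceps (log2 fold change 5.09, adjusted p = 0.000957 with edgeR). Quadriceps library 1 was thus the highest for Pck1, as it was for Pdk4 and for the adipocyte markers. Gys2, the liver glycogen synthase, was counted 0, 2 and 0 times in heart and 24, 12 and 5 times in quadriceps and was called higher on these few counts.

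Of the 7 listed subunit genes that bring protein phosphatase 1 to glycogen, 4 were higher in quadriceps and 3 lower. The shares over all transcripts were 32.2% higher and 34.4% lower. Ppp1r3c and Ppp1r3a, which had the highest levels per length of the 7, were higher, at 32.4 ± 0.947 in heart and 125 ± 30.5 in quadriceps for Ppp1r3c (SD, n = 3; log2 fold change 1.94, adjusted p = 9.32e-06 with edgeR) and 11.2 ± 1.22 and 45.1 ± 14.3 for Ppp1r3a (2.01, adjusted p = 3.11e-05 with edgeR). Ppp1r3e was also higher (2.48, adjusted p = 0.000518 with edgeR), on few counts, 4, 4 and 5 in heart and 18, 12 and 7 in quadriceps. Ppp1r3f was higher too (0.55, adjusted p = 0.0265 with edgeR), but its sign turned with library totals (-0.20, adjusted p = 0.366 with edgeR). The Ppp1r3f call was lost without heart library 1 or 3 or quadriceps library 1 or 2 (adjusted p = 0.0827, 0.0819, 0.0556 and 0.0753 with edgeR). These 4 genes were named after their values were seen. Among the lower genes, Ppp1r3b changed by -3.42 on the log2 scale (adjusted p = 1.23e-07 with edgeR), at 4.62 ± 0.220 in heart and 0.423 ± 0.102 in quadriceps (SD, n = 3). Ppp1r3d had -2.79 (adjusted p = 3.1e-06 with edgeR), from 315, 262 and 278 counts in heart to 31, 17 and 13 in quadriceps. Ppp1r3g was called on few counts, 12, 8 and 5 in heart and 0, 0 and 1 in quadriceps, and the call was lost without quadriceps library 1 (adjusted p = 0.0548 with edgeR), and it missed the count filter without heart library 1 or 2. Pgm5, a phosphoglucomutase relative found at cell adhesions, went from 13.8, 13.6 and 12.4 in heart to 2.65, 2.13 and 2.27 in quadriceps (log2 fold change -2.50, adjusted p = 1.27e-07 with edgeR). For Ppp1r3b, Ppp1r3d, Ppp1r3g and Pgm5 the quadriceps values lay below the heart values.

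After TAC, 4 of the 39 genes could be followed, since the table used for that comparison is restricted to 587 genes of secreted proteins and lists Gpi1, Aldoa, Slc2a4 and Pgk1. Of the 586 genes tested there, 174 (29.7%) were called in either direction with TMM scaling over the listed genes, but 60, 83 and 72 were without sham library 1, 2 and 3. Of the TAC columns, the third is numbered 4, whereas the sample titles run from 1 to 3, so it could be tied to the TAC group but not to a sample. The listed genes summed to 689630 to 1006148 counts in the sham libraries and 1166978 to 1326011 in the TAC libraries. Gpi1, whose protein is also secreted as a cytokine-like factor, was called higher after TAC. It had 3107, 5028 and 4294 normalized counts in the sham libraries and 9581, 6694 and 8091 in the TAC libraries, which did not overlap (log2 fold change 0.97, SE 0.24, adjusted p = 0.0206 with edgeR). The call was lost with library totals for 5 libraries (0.36, adjusted p = 0.241 with edgeR), a scaling under which the median of all genes fell from 0.029 to -0.63. It was also lost without sham library 1 or 3 or without the TAC library numbered 1 or 4 (0.770, 0.998, 0.773 and 0.903, with adjusted p = 0.0918, 0.0718, 0.0632 and 0.0555 with edgeR).

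The remaining 3 genes were not called after TAC. Aldoa had 72724, 126462 and 101686 normalized counts in sham and 138976, 157275 and 192447 in TAC quadriceps, also with no overlap (log2 fold change 0.70, adjusted p = 0.0889 with edgeR). Slc2a4 had 8157, 12663 and 10233 in sham and 14414, 13477 and 10441 in TAC quadriceps, which overlapped (log2 fold change 0.30, adjusted p = 0.369 with edgeR). Pgk1 had 616, 668 and 449.6 in sham and 383, 621 and 423 in TAC quadriceps, also overlapping (log2 fold change -0.28, adjusted p = 0.468 with edgeR). With library totals Aldoa and Slc2a4 had the opposite sign, at -0.053 and -0.19. The sham quadriceps libraries are the same as in the comparison with heart, and the other 35 genes were not analysed after TAC.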

How the data were processed

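RNA of 3 sham heart, 3 sham quadriceps and 3 TAC quadriceps samples was made into ScriptSeq libraries and read in single-end runs. Per the methods and the submitters' processing notes, the authors trimmed reads with Trim Galore!, aligned them to mm10 with STAR and counted them per RefSeq transcript with Rsubread. The deposited tables hold these raw counts and, beside them, RPKM values that the authors scaled by transcript length and library total. Strand and multi-mapping settings are not given in the sources used here. The tables also hold the authors' fold changes and p-values, which were not used, and 1 column of RPKM values for a single library that could not be tied to a sample was not used.

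Transcripts that exceeded 5 counts in 2 or more libraries were tested on their counts with edgeR 4.0.16 (TMM scaling, quasi-likelihood test, Benjamini-Hochberg adjustment over all tested transcripts, R 4.3.3). DESeq2 1.42.0 and limma 3.58.1 served as alternatives. Counts were also simulated from the heart levels (23744 transcripts tested), with 200 transcripts changed by 2 on the log2 scale. Of these 200, 95.5% were recovered, and 3.54% of calls were false. The simulation gave every transcript and library the same dispersion and changed only these 200. In the data 7828 transcripts were called higher and 8354 lower, so these rates describe the simulated setting and not the real comparison. Replicates differed by more than sampling noise (chi-square per degree of freedom of 7.10 or more), so each was counted as 1 sample. Each depth of 23383452 to 38382751 counts sets the precision of low counts, and few counts stand behind Aldoc, Pgam1, Gys2, Ppp1r3e and Ppp1r3g. Heart and quadriceps libraries of the same number did not deviate together (r = 0.023, -0.097 and -0.0093), so the numbers were not used as pairs. Shared 50-base windows and gene positions came from GENCODE M21 on GRCm38, the mm10 assembly, and promoters from the RefSeq table on GRCm38.p6. All 39 genes are named. Genes that share a reaction, and the 5 with the highest and lowest called fold changes, were given in every library. Of the 70 other genes the same 5 and 5 were taken, of which 1 is not reported here. The genes, the pathway list and the cell type markers were chosen with earlier results of these data known.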

Additional observations from a re-analysis of the deposited data

How the results depend on the processing

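Over 16 alternatives, 552 of 607 values of single genes in the heart comparison kept direction and side of the threshold. Values that turned did so mainly with library totals and with limma on RPKM, which is also scaled by library total, and the cause was not tested. With library totals, and with limma on log2(RPKM + 0.5), log2(RPKM + 1) and log2(RPKM + 0.1), transcripts called higher in quadriceps went from 7828 to 3241, 3201, 3194 and 3218, and those lower from 8354 to 15203, 15319, 15322 and 15365. In each of these 4 settings, 13 of the 39 genes were lower, and of the other pathway genes 21 were higher and 31 lower. The log2 fold change turned, in that order, to -0.26, -0.25, -0.21 and -0.29 for Slc2a1, to -0.58, -0.58, -0.57 and -0.58 for Hk2, to -0.053, -0.059, -0.058 and -0.059 for Gpi1, to -0.73, -0.51, -0.38 and -0.69 for Eno1 and to -0.70, -0.71, -0.71 and -0.71 for Pdha1. Testing 1 transcript per gene left fewer features, with 4744 higher and 5059 lower. Eno1 was also negative with no filter (-0.022) and, with Pdha1 (-0.021), at 10 or more counts in every library (-0.050). Leaving out each library in turn gave -0.079 to 0.16 for Eno1, being -0.079, -0.053 and -0.029 without heart library 2 and quadriceps libraries 1 and 2. It also gave 23 to 25 of the 39 genes higher and 8 to 9 lower.

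With the replicate number as a block, 24 and 8 of the 39 genes were called, and 7541 and 8175 transcripts. After TAC, 174 genes became 60 to 215 on leaving out 1 library, being 60, 83 and 72 without sham library 1, 2 and 3. The block on the 4 libraries numbered 1 and 2 gave 118, and the same libraries without it, an alternative added after seeing the data, 88. With that block Gpi1 was at 1.02 (adjusted p = 0.0885 with edgeR). With library totals, Slc2a4 and Aldoa turned to -0.19 and -0.053. Leaving out the TAC library numbered 4 and the genes with shared windows was also added after seeing the data.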
